A study of Drosophila melanogaster with 4 samples.

Results

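Genes of lipid storage, lipoproteins and the sugar response were followed in the heads of F1 Kr[If-1] flies with and without phenotypic variations of the eye. The 8 genes are Lsd-1, Lsd-2, bmm, Hsl, mdy, Rfabg, AkhR and sug, of 16680 genes in the deposited table, and each was found under its own name. They were taken by name for their roles, and some were selected on their difference in FPKM between these same libraries. FPKM is the number of fragments divided by the length of the transcript and by the depth of the library. The differences of these genes between the groups are therefore given as a description, with no test.

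The 4 mRNA-seq libraries were made from adult males, each from 10 heads, and sequenced as single-end reads of 50 cycles. Repeats 1 and 2 without phenotype and repeats 1 and 2 with phenotype are called biological repeats in the labels. All of these flies carried Kr[If-1], a dominant gain-of-function allele of the zinc finger gene Krüppel that sensitizes the eye to a loss of developmental robustness, and all had parents kept on food with 10 µM Cr(VI), given as potassium dichromate. By the labels, the groups differ in whether the F1 fly showed the eye phenotype, so they do not compare exposed with unexposed flies. Neither the age of the flies nor how the heads of each group were collected is known from the sources. The groups may thus differ in more than the phenotype.

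Flies keep their energy reserve as triglyceride in lipid droplets, mostly in the fat body, a tissue that also lies around the brain in the head. Proteins on the droplet surface decide how easily lipases reach the stored fat, and adipokinetic hormone, a glucagon-like peptide, signals through its receptor to release it. Lipid leaves for other organs as lipophorin, a lipoprotein particle in the hemolymph, and dietary sugar feeds the store through transcription factors that respond to sugar.

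The libraries had the transcripts of a head. Retinal markers summed to 1631 to 2081 FPKM in heads without and 1947 to 2686 FPKM in heads with phenotype, with all 13 genes at 1 FPKM or more in each library. All 7 neuronal and all 10 adult fat body markers were also at 1 FPKM or more in each library, while the 10 germline and reproductive tract markers summed to at most 1.28 FPKM, with Mst84Da at 0 in all libraries. The 45 markers of the digestive tract were at their highest in repeat 1 without phenotype (781 FPKM, against 205 FPKM in repeat 2), and summed to 155 and 391 FPKM with phenotype, with Jon66Ci at 0 in all libraries. From the size of the lowest values, 1 read per kilobase of transcript was worth about 0.0179 to 0.0207 FPKM, so the libraries were of like depth. By the same estimate the lowest value of the 8 genes, that of sug in repeat 2 without phenotype, stood for about 518 reads.

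The genes covered a wide range of levels. Rfabg was the most abundant, at a mean of 379 FPKM over the 4 libraries (rank 287 of 16680 genes), followed by Lsd-2 at 161 FPKM, Lsd-1 at 138 FPKM and bmm at 86.3 FPKM. Hsl, AkhR and mdy were at 30.1, 29.8 and 29.0 FPKM, and sug was the lowest at 21.8 FPKM, where the median gene tested was at 16.2 FPKM. FPKM is per length of transcript, so these levels can be set side by side. The ranges over the 4 libraries of neighbors in this order overlapped for every pair but bmm and Hsl.

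Lsd-1 and Lsd-2, the 2 perilipins of the fly, coat the lipid droplet. Lsd-1 can both shield the droplet and recruit lipolysis on hormone signaling, and Lsd-2 mainly protects the store. Lsd-1, on 3R from 23763857 to 23766662 (dm6), was at 97.05 and 96.2 FPKM in heads without and 192 and 167 FPKM in heads with phenotype. Both libraries with phenotype thus lay above both without. The means were 96.6 ± 0.580 and 179 ± 17.5 FPKM (SD, n = 2), a 1.86-fold difference (log2 fold change 0.88, standard error 0.11, on log2(FPKM + 1), the scale of all log2 values here). Lsd-2, on X from 15069127 to 15076220, was at 183 and 155 FPKM in heads without and 154 and 151 FPKM in heads with phenotype. Its groups did not overlap, but repeat 2 without phenotype was nearly as low as the libraries with phenotype, and the log2 fold change of -0.14 was close to its standard error of 0.12.

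**Figure D1:**
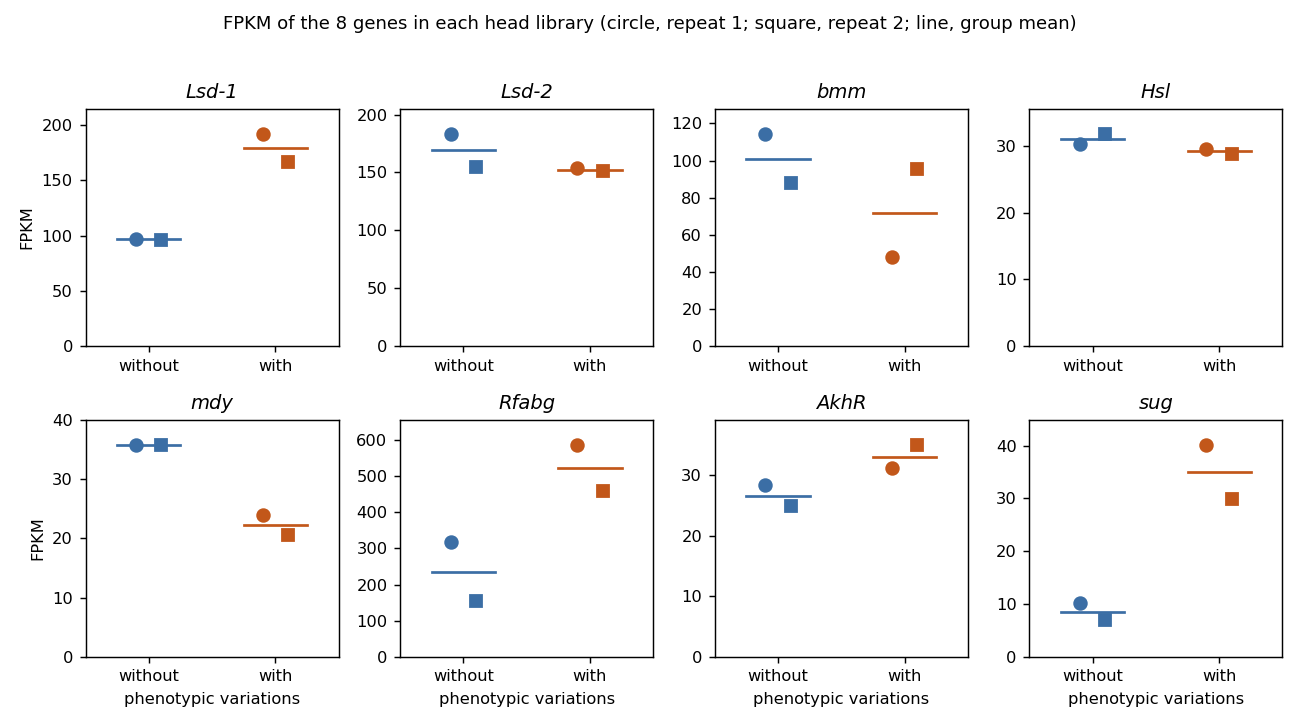
FPKM (y axes, from 0) of the 8 genes in each library without and with phenotypic variations (x axes), with circles for repeat 1, squares for repeat 2 and lines for group means. Both libraries with phenotype lie above both without for Lsd-1, Rfabg, AkhR and sug, and below both for Lsd-2, Hsl and mdy, while bmm overlaps.

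The make-up of the perilipin transcripts is given as a description. Since Lsd-1 was higher and Lsd-2 lower with phenotype, the groups had to separate in their ratio and share, which is no further result. Lsd-2 over Lsd-1, a ratio within a library that no scaling between libraries can move, was 1.89 and 1.61 without phenotype and 0.803 and 0.904 with phenotype. Lsd-2 was thus the more abundant of the pair in both libraries without phenotype, and Lsd-1 in both with phenotype. Lsd-1 made up 34.7% and 38.3% of the summed perilipin FPKM without phenotype and 55.5% and 52.5% with phenotype. The sum itself was 280 and 251 FPKM in heads without and 346 and 318 FPKM in heads with phenotype.

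**Figure D2:**
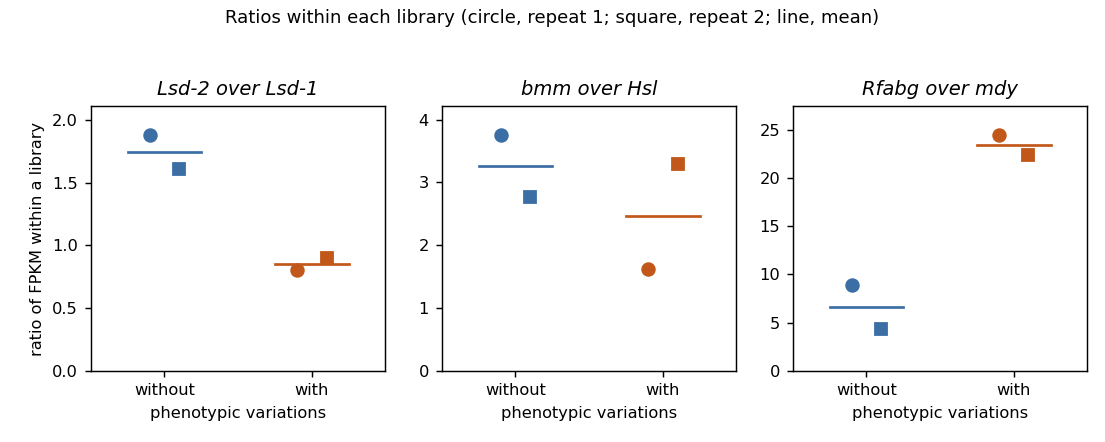
Ratios of FPKM within each library (y axes, from 0) without and with phenotypic variations (x axes), with circles for repeat 1, squares for repeat 2 and lines for means. Lsd-2 over Lsd-1 lies above 1 in both libraries without phenotype and below 1 in both with phenotype, bmm over Hsl overlaps, and Rfabg over mdy is at 8.86 and 4.29 without and 24.5 and 22.4 with phenotype. The separation of the first ratio follows from Lsd-1 being higher and Lsd-2 lower with phenotype, and that of the last from Rfabg being higher and mdy lower.

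The lipases were not set apart as clearly. bmm (brummer), the fly homolog of the adipose triglyceride lipase and the main lipase of the fat store, lies on 3L from 14776496 to 14786412. It was at 114 and 88.0 FPKM in heads without and 47.8 and 95.2 FPKM in heads with phenotype. Repeat 1 with phenotype was the lowest library, and repeat 2 with phenotype lay between the libraries without phenotype. The repeats with phenotype differed by 1.99-fold, a larger gap than in 98.7% of the genes tested, and the log2 fold change was -0.56 with a standard error of 0.35. It was -0.074 without repeat 1 with phenotype and -1.05 without repeat 2 with phenotype, so its size rests on single libraries. Hsl, the hormone-sensitive lipase on 2R, was at 30.4 and 31.8 FPKM in heads without and 29.6 and 28.9 FPKM in heads with phenotype. These values do not overlap, but they span little, and the log2 fold change of -0.085 had a standard error of 0.075. bmm over Hsl was 3.76 and 2.77 without phenotype and 1.62 and 3.30 with phenotype, which overlap.

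mdy (midway) encodes the diacylglycerol acyltransferase of the DGAT1 type, the enzyme of the last step of triglyceride synthesis, and lies on 2L from 16816660 to 16826964. It was at 35.8 FPKM in both repeats of heads without and 23.9 and 20.5 FPKM in heads with phenotype. The libraries with phenotype were both lower, by 13.5 FPKM in the mean (35.8 ± 0.0212 and 22.2 ± 2.43 FPKM, SD, n = 2; log2 fold change -0.67, standard error 0.099). The repeats without phenotype happened to be nearly equal, closer than in all but 0.628% of the genes tested, so their SD understates the spread that further libraries could show.

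Rfabg, now called apolpp, encodes the precursor of the apolipophorins, the protein scaffold of lipophorin. It lies on 4 from 1060969 to 1077273. It was at 317 and 153 FPKM in heads without and 587 and 460 FPKM in heads with phenotype. The libraries with phenotype were above those without, from 1.45-fold to 3.83-fold by pair of libraries. The repeats without phenotype themselves differed by 2.07-fold, more than in 97.4% of the genes tested, which widened the standard error to 0.37 around a log2 fold change of 1.23. The log2 fold change was 1.75 without repeat 1 and 0.71 without repeat 2 of the flies without phenotype. Rfabg over mdy, the carrier of lipid over the enzyme that makes the stored form, was at a mean of 6.57 ± 3.23 without and 23.4 ± 1.48 with phenotype (SD, n = 2). Since Rfabg was higher and mdy lower with phenotype, the groups had to separate in this ratio, which is no further result.

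AkhR, the receptor of adipokinetic hormone, lies on 2L from 6711286 to 6716186. It was at 28.3 and 24.9 FPKM in heads without and 31.1 and 35.0 FPKM in heads with phenotype. The groups did not overlap, but the nearest libraries differed by only 1.10-fold, and the log2 fold change was 0.30 (standard error 0.11).

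sug (sugarbabe), on 2R, encodes a zinc finger transcription factor of the Gli-similar type that is induced by dietary sugar and promotes fatty acid synthesis in the fly. It was at 10.1 and 6.99 FPKM in heads without and 40.1 and 29.97 FPKM in heads with phenotype. The lower library with phenotype was still 2.96-fold above the higher one without. The means of 8.56 ± 2.22 and 35.0 ± 7.18 FPKM (SD, n = 2) differed by 4.09-fold, with a log2 fold change of 1.92 and a standard error of 0.22. This was the largest difference among the 8 genes, larger than in 99.3% of the 10194 genes tested. Without any single library, the log2 fold change of sug lay between 1.68 and 2.16.

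**Figure D3:**
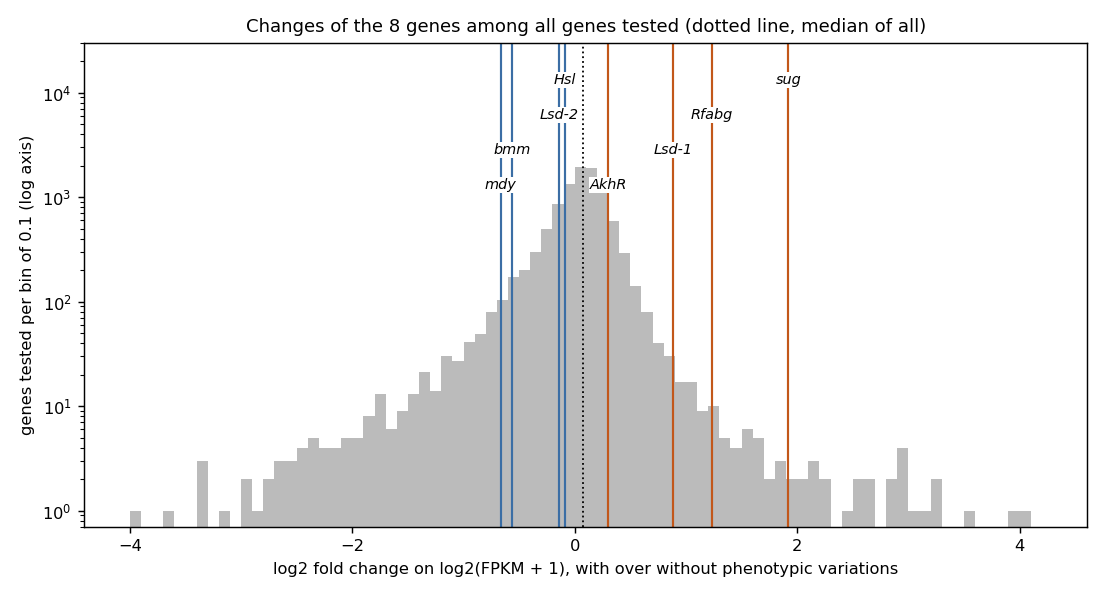
Log2 fold change of the 8 genes (vertical lines, orange where positive and blue where negative) over the distribution of all 10194 genes tested (gray bars, y axis logarithmic). sug at 1.92 and Rfabg at 1.23 lie far to the right of the median of all genes, 0.070, while Hsl and Lsd-2 lie near it.

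None of the 8 genes passed the test across all genes (limma, adjusted p under 0.1), which called 9 genes or 0.0883% of 10194, 6 as higher (0.0589%) and 3 as lower (0.0294%), with 2311 (22.7%) under an unadjusted p of 0.05. With libraries rescaled by median ratios it called 0 higher and 1 lower, and rescaled by the upper quartile 5 and 1. Of the 8 genes, 4 were higher and 3 lower without any overlap of the groups, and 59.5% of the 10194 genes had none either (41.3% higher and 18.3% lower). Under other settings the number of the 8 genes that passed was 3 with a filter of 5 FPKM (beside 1.35% of genes), 3 without repeat 1 without phenotype (4.99%), 3 with a crossed replicate block (3.96%), 1 without repeat 2 without phenotype (1.39%), and 0 without either repeat with phenotype, with a replicate block and in the rest. Since some of the genes were chosen for their difference, nothing is read from these counts. With 2 libraries a group, an exact permutation test cannot give a two-sided p under 0.333.

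Some of the transcripts share sequence with a neighbor. The exons of Lsd-1 overlap those of CG10214 by 144 bp on the opposite strand, those of Rfabg overlap Zyx by 96 bp and an insertion of the transposable element HB by 676 bp, both on the opposite strand, and those of sug overlap CG13319 by 98 bp on the same strand. CG10214 was at 13.7 and 13.0 FPKM in heads without and 13.7 and 15.6 FPKM in heads with phenotype, and CG13319 was at 13.4 and 19.6 FPKM in heads without and 14.8 and 15.8 FPKM in heads with phenotype. Zyx was at 63.2 and 68.6 FPKM in heads without and 63.5 and 73.9 FPKM in heads with phenotype. In these 3 neighboring genes the groups overlapped, while the HB insertion was not analysed here.

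The genes nearest in profile to sug and to Rfabg were also looked up. Likeness was measured as the Euclidean distance between profiles of log2(FPKM + 1) over the 4 libraries, each less its mean, and no gene lay within 0.25 of either. How many genes lie that near to other genes was not measured, and the profiles were not scaled by the size of the change. Nearest to sug was CG30431 (distance 0.275), at 4.31 and 2.89 FPKM in heads without and 14.7 and 12.8 FPKM in heads with phenotype, followed by CG17325 and CG42305, which share 1 set of values (distance 0.460). Nearest to Rfabg were CG5991, CG4408 and Cyp4d21 (distances 0.262, 0.277 and 0.362). Cyp4d21, a cytochrome P450 gene, was at 131 and 80.8 FPKM in heads without and 239 and 174 FPKM in heads with phenotype. Like Rfabg, all of its values with phenotype were above those without, and repeat 1 was above repeat 2 in either group. Cyp4d21 was picked for its nearness to Rfabg, so this likeness is only a description.

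Other genes of the same pathways were taken from lists, 136 genes in all, of which 127 had a mean of at least 1 FPKM and were tested. Of these, 0 passed as higher (0.0589% of all genes) and 1 as lower (0.0294%). The lists were chosen with earlier results of these data known, so nothing is read from these counts. By sign, 58 were higher and 69 lower, with a median log2 fold change of -0.048, while the median of all genes tested was 0.070, with 62.7% of them higher and 37.3% lower.

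Of the genes of the lipid droplet and lipolysis, 12 of 13 were tested. The 1 gene that passed, as lower, was CG4500 (hll), an acyl-CoA synthetase gene put in this list with earlier results known. It was at 43.6 and 48.8 FPKM in heads without and 4.02 and 3.43 FPKM in heads with phenotype (-3.32 on the log2 scale with a standard error of 0.10, limma adjusted p = 0.014), and its log2 fold change stayed between -3.41 and -3.23 without any single library, while the call was lost without repeat 1 or repeat 2 with phenotype (limma adjusted p = 0.24 and 0.37). The most abundant, the droplet dehydrogenase gene CG2254 (Ldsdh1), was at 248 and 182 FPKM in heads without and 284 and 252 FPKM in heads with phenotype. Jabba, whose product anchors histones on lipid droplets in the embryo, was at 53.6 and 49.4 FPKM in heads without and 69.5 and 70.7 FPKM in heads with phenotype (limma adjusted p = 0.14). The list as a whole had 6 genes higher and 6 lower, with a median of -0.036, which was 0.10 (9 higher, 3 lower) without repeat 1 and -0.18 (5 higher, 7 lower) without repeat 2 of the flies without phenotype.

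Of the genes of fatty acid and triglyceride synthesis, 0 of 23 tested passed (6 at an unadjusted p under 0.05 from limma), with 14 higher, 9 lower and a median of 0.064. The median was -0.039 (11 higher, 12 lower) without repeat 2 without phenotype and -0.022 with scaling by median ratios. Desat1, the fatty acid desaturase and the most abundant of them, was at 1642 and 1284 FPKM in heads without and 1964 and 1922 FPKM in heads with phenotype (0.42 on the log2 scale, limma adjusted p = 0.21). CG3523 (FASN1), a fatty acid synthase, was at 266 and 196 FPKM in heads without and 393 and 306 FPKM in heads with phenotype (0.60 on the log2 scale, limma adjusted p = 0.20). ACC and ATPCL, the enzymes before the synthase and picked with their values known, were on the other side, at 232 and 203 FPKM in heads without and 190 and 181 FPKM in heads with phenotype for ACC and at 183 and 173 FPKM in heads without and 166 and 152 FPKM in heads with phenotype for ATPCL. The genes of fatty acid synthesis thus had values on both sides.

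The genes of the DGAT2 type catalyze the same step as mdy, and CG1942 (Dgat2) had the most negative log2 fold change of this list. It was at 3.55 and 4.67 FPKM in heads without and 1.57 and 1.60 FPKM in heads with phenotype (-0.97 on the log2 scale with a standard error of 0.15, limma adjusted p = 0.12). Its relatives CG1941 and CG1946, picked with their values known, were at 16.1 and 13.6 FPKM in heads without and 12.3 and 11.5 FPKM in heads with phenotype and at 1.80 and 0.29 FPKM in heads without and 0.08 and 0.04 FPKM in heads with phenotype. The values of these genes, like those of mdy, were lower with phenotype with no overlap, as were those of 18.3% of all genes tested, and the related copies may share reads. CG1946, at a mean of 0.55 FPKM, was below the filter and not tested, so that share is no background for it.

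Of the lipoprotein and lipid carrier genes, 0 of 22 tested passed (9 at an unadjusted p under 0.05 from limma), with 9 higher, 13 lower and a median of -0.088, which was -0.15 without repeat 1 and 0.028 (11 higher, 11 lower) without repeat 2 of the flies with phenotype. Genes of the lipoproteins themselves, grouped with their values known, were on the side of Rfabg. Mtp, the microsomal transfer protein that loads lipid onto lipophorin, was at 30.4 and 24.3 FPKM in heads without and 42.9 and 36.6 FPKM in heads with phenotype (0.53 on the log2 scale, limma adjusted p = 0.17). Apoltp, the scaffold of the lipid transfer particle, was at 21.7 and 23.1 FPKM in heads without and 41.0 and 33.1 FPKM in heads with phenotype (0.69 on the log2 scale, limma adjusted p = 0.13). cv-d, a vitellogenin-like lipoprotein gene, was at 22.8 and 20.6 FPKM in heads without and 33.3 and 29.0 FPKM in heads with phenotype (0.50 on the log2 scale, limma adjusted p = 0.15). The lipophorin receptor genes LpR1 and LpR2 were at 54.5 and 52.4 FPKM in heads without and 57.1 and 69.3 FPKM in heads with phenotype and at 49.5 and 51.2 FPKM in heads without and 49.6 and 47.4 FPKM in heads with phenotype, the latter with overlap. All but LpR2 were higher with no overlap, as were 8 of the 22 genes of the list and 41.3% of all genes.

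Carriers of single lipids had values on both sides. fabp, a fatty acid binding protein gene and the most abundant of the list, was at 761 and 563 FPKM in heads without and 484 and 431 FPKM in heads with phenotype (-0.52 on the log2 scale, limma adjusted p = 0.20). Npc2g, of the sterol-binding Npc2 family, was at 375 and 286 FPKM in heads without and 577 and 528 FPKM in heads with phenotype (0.75 on the log2 scale, limma adjusted p = 0.15). ninaD, a scavenger receptor gene for carotenoid uptake in the midgut, had the most negative value, at 11.5 and 3.06 FPKM in heads without and 1.26 and 0.63 FPKM in heads with phenotype (-1.89 on the log2 scale with a standard error of 0.57, limma adjusted p = 0.18). Its highest library was repeat 1 without phenotype, as for the sum of the digestive tract markers.

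Of the genes of Akh signaling and energy mobilization, 0 of 25 tested passed (4 at an unadjusted p under 0.05 from limma), with 13 higher, 12 lower and a median of 0.053, which was -0.0066 without repeat 2 without phenotype and -0.031 with scaling by median ratios. Akh, the ligand of AkhR, was at 41.0 and 44.1 FPKM in heads without and 47.5 and 100.02 FPKM in heads with phenotype (0.69 on the log2 scale with a standard error of 0.36, limma adjusted p = 0.32). The difference came mainly from repeat 2 with phenotype, the library in which AkhR was highest too. CG10924 (Pepck2), a relative of the gluconeogenic enzyme gene Pepck, was at 13.2 and 9.50 FPKM in heads without and 2.55 and 5.23 FPKM in heads with phenotype (-1.37 on the log2 scale, limma adjusted p = 0.15), and Ca-P60A, the calcium pump SERCA and the most abundant of the list, was at 1378 and 1160 FPKM in heads without and 1086 and 1008 FPKM in heads with phenotype.

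Of the genes of sugar sensing and the sugar response, 0 of 19 tested passed (6 at an unadjusted p under 0.05 from limma), with 10 higher, 9 lower and a median of 0.00050, which was 0.11 without repeat 1 and -0.11 without repeat 2 of the flies without phenotype. daw (dawdle), an activin-like ligand gene that responds to sugar, was at 25.3 and 22.2 FPKM in heads without and 52.9 and 46.1 FPKM in heads with phenotype (1.03 on the log2 scale with a standard error of 0.11, limma adjusted p = 0.11, and 0.052 to 0.60 over the alternatives). cbt (cabut), a sugar-induced transcription factor gene picked with its values known, was at 29.99 and 34.8 FPKM in heads without and 56.7 and 56.4 FPKM in heads with phenotype (0.79 on the log2 scale, limma adjusted p = 0.11). daw and cbt, like sug, were higher with no overlap, as were 8 of the 19 genes of the list and 41.3% of all genes, while Zw and Pgd, genes of the pentose phosphate pathway, and the trehalose transporter gene Tret1-1 overlapped between the groups. Mio (Mondo), a sugar sensor gene, was at 54.4 and 48.7 FPKM in heads without and 39.9 and 44.4 FPKM in heads with phenotype. Mio was lower with no overlap, as were 5 of the 19 genes of the list and 18.3% of all genes. Its partner gene bigmax was at 19.2 and 19.3 FPKM in heads without and 22.2 and 24.3 FPKM in heads with phenotype. GlyS, glycogen synthase, was at 190 and 156 FPKM in heads without and 139 and 114 FPKM in heads with phenotype, and Pgi, the most abundant of the list, was at 460 and 341 FPKM in heads without and 363 and 321 FPKM in heads with phenotype.

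Fatty acid oxidation burns what the lipases release. Of its 28 genes tested, 0 passed (6 at an unadjusted p under 0.05 from limma), with 7 higher, 21 lower and a median of -0.15, against 37.3% lower among all genes. yip2, a thiolase gene and the most abundant, was at 421 and 345 FPKM in heads without and 265 and 260 FPKM in heads with phenotype (-0.54 on the log2 scale, limma adjusted p = 0.15). CG9547, an acyl-CoA dehydrogenase gene, was at 55.0 and 35.98 FPKM in heads without and 28.3 and 29.0 FPKM in heads with phenotype (-0.62 on the log2 scale, limma adjusted p = 0.20). Of the genes of the mitochondrial pathway, split off with the values known, 19 of 20 were lower, and of the 6 of the peroxisomal pathway 5 were higher, among them Acox57D-d at 2.43 and 1.91 FPKM in heads without and 3.50 and 3.85 FPKM in heads with phenotype. All genes tested were 62.7% higher and 37.3% lower. Without repeat 1 without phenotype 14 of the 20 mitochondrial genes were lower, and their median was -0.10 in place of -0.24. In the same setting the median of the whole list was -0.015 with 16 of 28 lower, and without repeat 2 it was -0.32 with 22 lower, so the median of the whole list depends on which library without phenotype is left out.

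**Figure D4:**
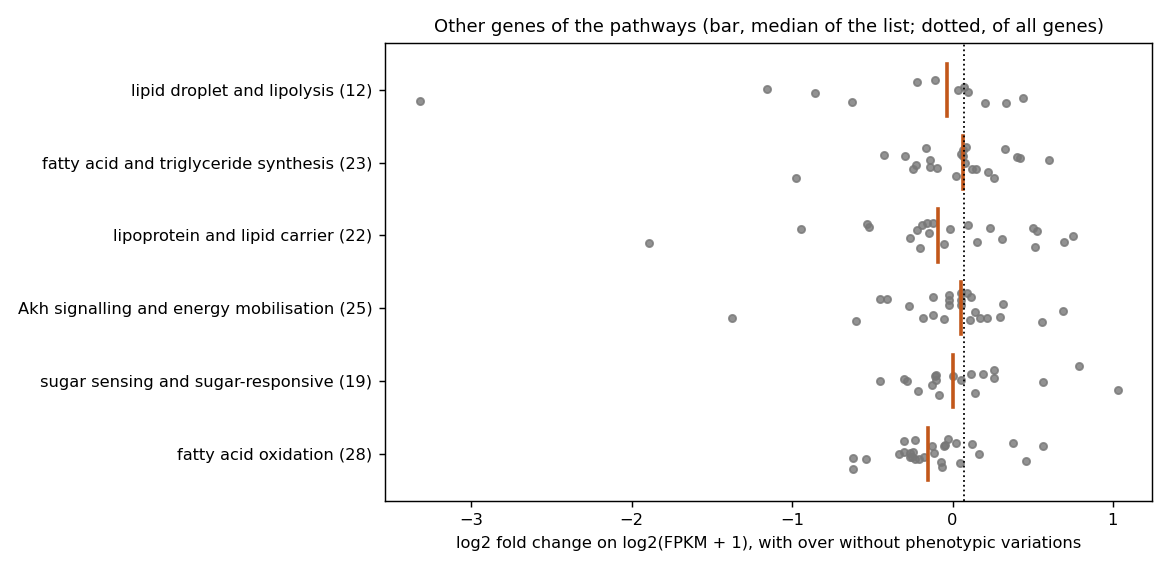
Log2 fold change (x axis) of the tested genes of the pathway lists (points, number in parentheses), with the median of each list (bars) and of all genes (dotted line). The lists straddle 0, fatty acid oxidation lies to the left at -0.15, and CG4500 at -3.32 is the point farthest to the left.

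Markers of the tissues that use these genes were also compared. In a head, fewer cells of a type and less RNA per cell cannot be told apart. The 10 adult fat body markers summed to 1389 to 1926 FPKM without and 1524 to 1833 FPKM with phenotype, so the sums overlapped. By sign 6 of the markers were higher and 4 lower. With no overlap 4 were higher (Yp3, fit, sxe2 and srp) and 1 lower (smp-30), beside 41.3% and 18.3% of all genes. Most of the sum was the transferrin gene Tsf1, at 1354 and 1010 FPKM in heads without and 1289 and 1049 FPKM in heads with phenotype. The sum therefore says little about the other markers. fit was at 10.7 and 1.63 FPKM in heads without and 24.8 and 42.6 FPKM in heads with phenotype (limma adjusted p = 0.17). smp-30 was at 161 and 66.6 FPKM in heads without and 58.3 and 58.8 FPKM in heads with phenotype (limma adjusted p = 0.31). Yp1, Yp2 and Yp3 were at 2.85 FPKM or less in each library. The 6 larval serum and fat body proteins summed to 411 to 1464 FPKM without and 166 to 430 FPKM with phenotype, with 6 of 6 lower by sign, beside 37.3% of all genes. Most of the sum was Lsp2, a storage protein gene, at 1348 and 293 FPKM in heads without and 406 and 147 FPKM in heads with phenotype, which overlap. The other 5 genes were 2.95-fold to 7.83-fold lower with no overlap, where 18.3% of all genes were lower with no overlap. Fbp2 and Lsp1alpha passed (limma adjusted p = 0.077 for either), 2 of the 3 genes called lower of all 10194 (0.0294%). Both calls were lost with scaling by median ratios or by the upper quartile, without a filter, at a threshold of 0.05 and with a replicate block. Fbp2 was at 46.3 and 57.9 FPKM in heads without and 9.69 and 7.21 FPKM in heads with phenotype. The 9 oenocyte markers, of cells that make cuticular lipids, summed to 129 to 140 FPKM without and 146 to 206 FPKM with phenotype, and 4 of them were tested, of which 3 were higher and 0 passed (2 at an unadjusted p under 0.05 from limma). Most of this sum was Cpr, a P450 reductase gene that many tissues express, at 115.3 and 105 FPKM in heads without and 137 and 111 FPKM in heads with phenotype. Cyp4g1, the P450 of the last step of hydrocarbon synthesis, was at 3.35 and 2.31 FPKM in heads without and 39.1 and 10.1 FPKM in heads with phenotype, an 8.70-fold difference of the means (limma adjusted p = 0.16). svp was also higher with no overlap, at 15.7 and 18.0 FPKM in heads without and 24.2 and 21.9 FPKM in heads with phenotype (limma adjusted p = 0.15). The untested CG18609 and CG16904, at 2.30 FPKM or less in each library, were higher with no overlap too. Among all genes, 41.3% were higher with no overlap. In the other direction, CG17374 (FASN3) was lower with no overlap, while v(2)k05816 (FASN2) overlapped. eloF and Fad2 were at 0.15 FPKM or less in each library. No marker of these 3 lists was at 0 in all libraries. Their part in the differences of the lipid genes was not tested.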

How the data were processed

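Per the authors' methods, polyA-selected single-end reads were mapped with Bowtie 2 against the RefSeq mRNAs of dm6, and RSEM turned them into FPKM. The processing notes list dm3 as well, and no tool versions are stated. The deposited table gives FPKM for each gene to 2 decimals, with 16680 genes, and 1172 of these are 0 in every library. Such values are not counts, which leaves the EBSeq step of the study out of reach.

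Genes were tested if their mean over the 4 libraries reached 1 FPKM, which left 10194. limma 3.58.1 (R 4.3.3) was run on log2(FPKM + 1) with a mean-variance trend in eBayes. Tests were two-sided, and p-values were adjusted after Benjamini and Hochberg over all of these genes with a threshold of 0.1. A fold change on this scale understates the change of low genes. The fit was tested on simulated data. Reads per library are unknown from FPKM. The value of about 1 read came from percentile 1 of FPKM times length in short genes with 1 annotated transcript. Coordinates and exon overlaps are from Ensembl release 115 (dm6). Tables were made in Python 3.11.15 with pandas 2.3.3.

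The 8 genes, the 6 pathway lists and the 7 marker lists were chosen with earlier results of these data known. All names of the lists were matched, some by older symbols, and the 8 genes were left out of the lists. From each pathway list, the text names the genes that passed, the most abundant and those with the most positive and most negative log2 fold change. From the fat body, larval and oenocyte marker lists it names the most abundant gene. Fbp2, Lsp1alpha, the other adult fat body markers named and the other oenocyte markers were added with their values known. So were Zw, Pgd, Tret1-1, Hmgs and CG10399. Genes named beyond this rule are given as picked with their values known, and the lipophorin receptors, Mio, bigmax and the overlapping neighbors were added for their role. The 3 genes nearest in profile were named for the gene with the largest change and the most abundant gene. Alternatives were another pseudocount, filters, scalings, a threshold of 0.05, no trend, a replicate block and leaving out each library. P-values set the group difference against the spread between these libraries of pooled heads, with eBayes sharing information on that spread across genes. They do not measure the spread between single flies. No sequences were analysed here.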

Additional observations from a re-analysis of the deposited data

How the results depend on the processing

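The count of 9 genes was 23 with a pseudocount of 0.1 FPKM, 1 with scaling by median ratios, 109 with a filter of 5 FPKM, 3 without a filter, 5 without trend and 4 at a threshold of 0.05. Leaving out single libraries gave 0 to 509 genes (509 without repeat 1 and 142 without repeat 2 of the flies without phenotype, 0 without either repeat with phenotype). With a replicate block it was 0, and CG4500 did not pass (adjusted p = 0.15 from limma, with the same log2 fold change of -3.32). The numbers do not pair the samples by the labels, and deviations of same-numbered libraries correlated at -0.13 across genes. A crossed replicate block, added after seeing the data, called 404. The cause of these shifts was not tested. All 8 genes kept the sign of their log2 fold change in every alternative run, and that of Hsl was -0.17 with scaling by median ratios. That of Pgi was between -0.43 and 0.0015 with single libraries left out. True reads per library are unknown from FPKM, so what depth limits was not tested.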
